A study of Mus musculus with 15 samples.

Results

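Postn, Ccn2, Thbs1, Thbs4, Spp1, Tnc, Sparc, Lox, Tgfb1 and Tgfb2 are 10 genes for matricellular proteins, TGF-beta ligands and a collagen cross-linker that are followed in fibrosis of the heart. They were taken by name: a probe belonged to a gene when its listed accession mapped to that symbol or to an older one, such as Ctgf for Ccn2. Of these genes, 9 matched a probe, among 18350 genes with a matched probe on the array. Lox matched no probe by the accessions of the reference table, so a probe listed under another accession would be missed, and it was not analysed here. The 9 genes had 14 probes, of which 12 were tested because 3 or more of the 15 arrays detected them well above background. All 9 genes kept at least 1 tested probe, and each is described by its brightest.

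The arrays measured heart RNA of C57BL/6 mice, 1 mouse to an array, with a single dye. Methamphetamine hydrochloride in PBS (meth) was injected into the abdomen weekly for 5 months, rising by 2 mg/kg a week to 40 mg/kg at week 20, and controls received PBS alone. Mice were 8 to 10 weeks old at the start. The groups were 4 male meth, 4 male PBS, 4 female meth and 3 female PBS hearts. Each male group held 2 hearts from each of 2 separate trials. The titles of the samples put every female heart in trial 1, although another label places female meth replicates 3 and 4 and female PBS replicate 3 in trial 2. Of the 4 slides, slides 1 and 2 carried trial 1 males together with replicates 1 and 2 of both female groups, slide 3 carried only trial 2 males, and slide 4 only the remaining 3 females; both treatments were on each. Male trial 2, slide 3 and its scan session cannot be told apart. The share of probes detected well above background was lowest at 61.4% and highest at 71.4%, and precision is limited by how few arrays there are. All signals below are log2 values relative to the array's own 75th percentile over probes, so a value of 0 lies at that percentile. Because the probes bind with different strength, a level is compared only between arrays, never between genes.

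Matricellular proteins are secreted into the extracellular matrix but do little to bear load; they tune how cells hold on to the matrix, how collagen fibres assemble and how growth factors are released. Most are scarce in the healthy adult heart and rise in injured or overloaded muscle, mainly in activated fibroblasts. TGF-beta is stored in the matrix in a latent form, and once freed it acts through its receptors and SMAD proteins to switch on genes for collagen, periostin (Postn) and connective tissue growth factor (Ccn2).

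The labelled tissue was checked first. All 8 cardiomyocyte markers were well above background on every array, with a mean signal between 7.72 and 8.06 and Myl2 as the brightest. Whole heart RNA was measured, so more cells of a type and more RNA per cell cannot be told apart in any value below.

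A single heart stood apart in these genes. Male meth trial 2 replicate 1 had the highest signal of all 15 arrays for 6 of the 9 genes (Ccn2, Postn, Thbs4, Tnc, Sparc and Tgfb2), while it was the highest array for 6.34% of the 14220 genes tested. Tnc met the filter with just 3 arrays, this one among them, so its place in the count is not independent of the filter. Among the 8 male arrays the same heart was highest for 8 of the 9 genes, Tnc included, against 15.1% of all genes. The exception was Tgfb1, for which male meth trial 2 replicate 2 was highest. Over the other genes of the pathway lists described below, 35 of 86 (40.7%) were highest on the same array. Relative to the mean of the other male meth hearts, the 9 genes were higher there by a median of 0.82 on the log2 scale, against a median of -0.046 over all genes tested, with signals under an array's lowest well above background set to that lowest. Its cardiomyocyte markers had a mean signal of 7.88, and its share of probes well above background was 63.7%, both inside the range of the other arrays. The male log2 fold change of each listed gene that has one is therefore given with and without this heart.

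**Figure D1:**
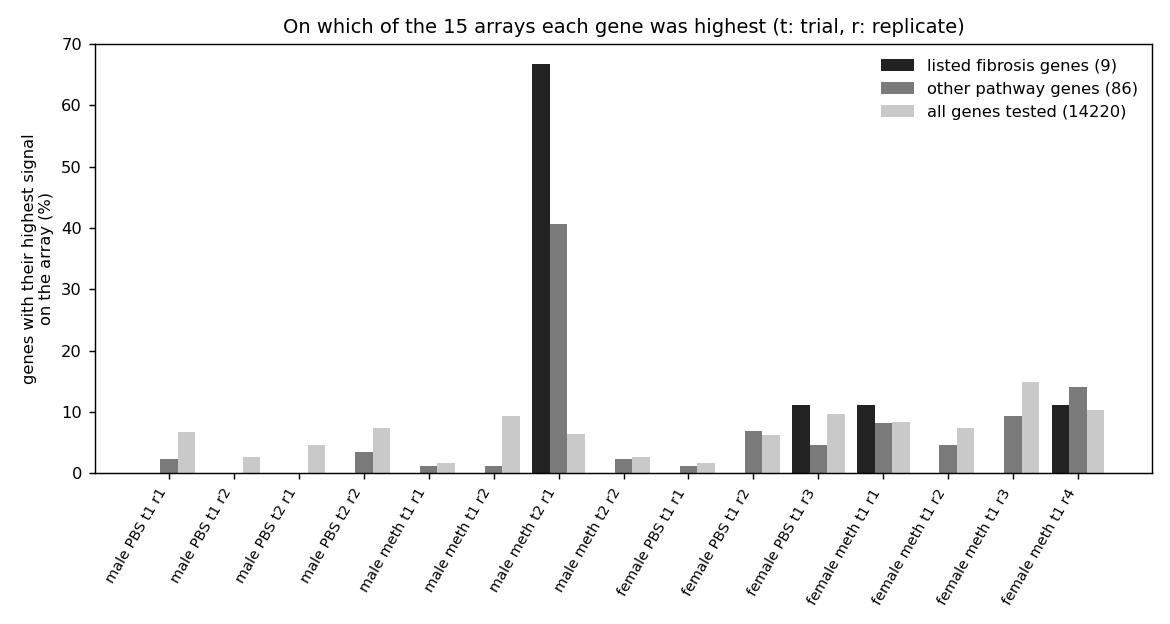
For each array (t, trial; r, replicate), the bars give the percent of genes whose highest signal of the 15 arrays fell on it, for the 9 listed genes with a probe, 86 other pathway genes and all 14220 genes tested. Male meth trial 2 replicate 1 held 6 of the 9 listed genes and 40.7% of the pathway genes, but 6.34% of all genes. Tnc, among these 6, met the filter partly through this array.

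No listed gene passed the threshold, an adjusted p of 0.05 in limma over all 28358 probes tested, in any of the comparisons. For males, meth against PBS, 0 of 9 genes passed, where 1.34% of all genes tested did. An unadjusted p under 0.05 was found for 3 of the 9 (Postn, Ccn2 and Thbs4), all higher after meth, beside 13.2% of all genes. With the methods' t-test, which is paired, or an unpaired form of it, 1 of the 9 had an unadjusted p under 0.05, beside 17.2% and 15% of all genes, and 0 passed. Male meth and PBS arrays did not overlap for 2 of the 9 (Postn and Tgfb1), beside 11.6% of all genes. In females, 0 of 9 passed, where 0.443% of all genes did; 2 of 9 (Spp1 and Ccn2) had an unadjusted p under 0.05, beside 7.82%. The methods' t-test gave 2 of 9 such genes, beside 8.9% of all genes, its unpaired form 1, beside 6.4%, and 0 passed with either. Female arrays did not overlap for the same pair of genes, beside 7.01% of all genes. For the difference between the male and the female response, 0 of 9 passed, where 0.155% of all genes did, and 0 of 9 had an unadjusted p under 0.05, beside 8.12%. With an array left out, such unadjusted counts ran from 1 to 5 in males and from 0 to 2 for this difference. With the replicate number or slide as a block, or trial taken from the other label, the count for the difference was 1. The female count fell from 2 to 1 without female meth replicate 2 or 3, or any female PBS heart. It also fell to 1 with normexp background correction, quantile normalization or slide as a block. Between male and female PBS hearts, 0 of 9 passed, where 0.549% did, and 1 of 9 (Thbs1) had an unadjusted p under 0.05, beside 15.3%. The median male log2 fold change was 0.30 over the 9 genes and -0.012 over all genes; in females it was 0.063 and 0.026. These medians hold genes not well above background in a group at their bound, which for Tnc is no difference. Without male meth trial 2 replicate 1, the male median of the 9 genes was 0.22, that of all genes was -0.0054, and 1 of the 9 genes had an unadjusted p under 0.05, beside 9.18% of all genes.

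**Figure D2:**
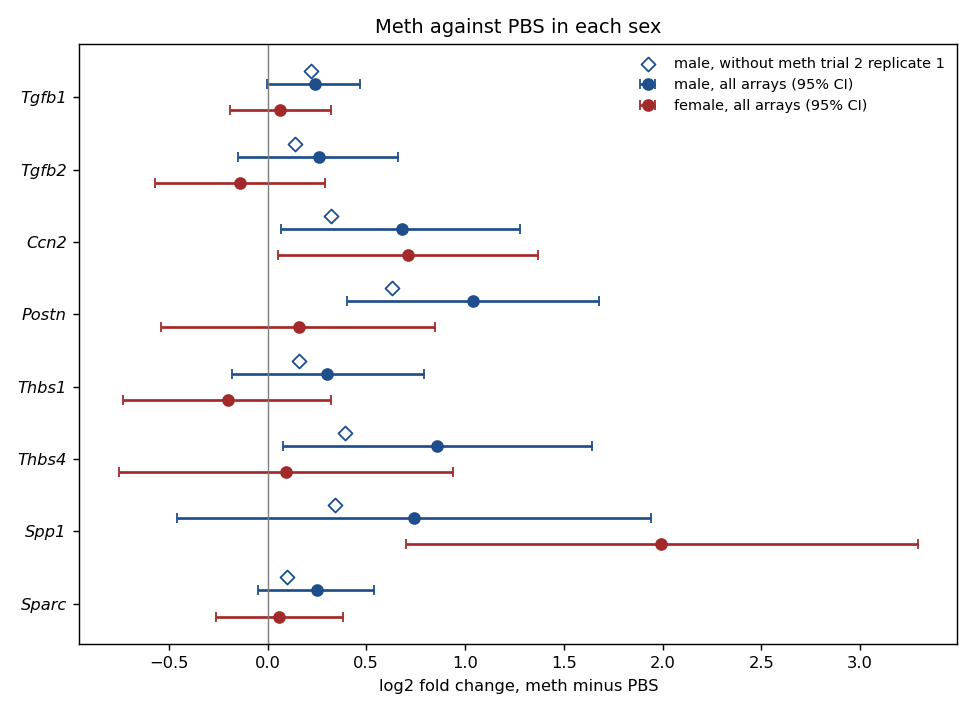
Points give the limma log2 fold change of meth against PBS for 8 genes in males (blue) and females (red), with 95% confidence intervals; open diamonds give the male value without male meth trial 2 replicate 1. The male Postn value falls from 1.04 to 0.63 and the female Spp1 value is 1.99, and no value passed the threshold.

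The ligands moved little. Tgfb1, the main TGF-beta of adult tissue, had signals of 0.11, 0.20, 0.20 and 0.23 in male meth hearts (trial 1 replicates 1 and 2, then trial 2) and of 0.0083, 0.046, -0.11 and -0.14 in male PBS hearts. Every male meth value lay above every male PBS value, by a narrow margin (exact permutation test, p = 0.0286, the smallest these group sizes allow). Its male log2 fold change was 0.24 (95% confidence interval -0.0018 to 0.47, adjusted p = 0.394), and 0.22 without trial 2 replicate 1, the heart that stood apart in other genes but not here. Female meth hearts averaged 0.15 ± 0.22 (SD, n = 4) and female PBS hearts 0.085 ± 0.17 (SD, n = 3), with overlapping groups. The female log2 fold change of 0.063 (adjusted p = 0.920) turned to -0.026 with the replicate number as a block.

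Tgfb2, a ligand more prominent in development, was at -0.37, -0.33, 0.078 and -0.31 in male meth hearts and at -0.31, -0.51, -0.38 and -0.75 in male PBS hearts. The heart of trial 2 replicate 1 was high and the remaining meth values lay at or inside the PBS range. Its male log2 fold change of 0.26 (adjusted p = 0.616) became 0.14 without that heart. In females it was lower by 0.14 (adjusted p = 0.884), with female meth signals between -0.97 and -0.23 and PBS signals between -0.75 and -0.21. The lowest female Tgfb2 signals of each treatment were on slide 4, and within that slide the log2 difference was -0.13.

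Ccn2 encodes a secreted adaptor protein that TGF-beta induces within hours and that binds integrins and growth factors. Its signals in female meth hearts 1 to 4 were 4.38, 4.71, 4.66 and 4.27, and in female PBS hearts 3.83, 3.88 and 3.67. Every female meth heart lay above every female PBS heart (exact permutation test, p = 0.0286, the smallest possible when slide and replicate number are ignored, as here). A log2 fold change of 0.71 (95% confidence interval 0.055 to 1.37, adjusted p = 0.398) resulted, and the gap was present on each slide: 0.55 on slide 1, 0.83 on slide 2 and 0.79 on slide 4. Male meth hearts had Ccn2 signals of 4.21 and 4.10 in trial 1 and 5.33 and 3.49 in trial 2, against 3.43 and 3.38, then 3.78 and 3.84, in male PBS hearts. The trial 2 meth pair thus held both the highest and the lowest male meth value, and replicate 2 lay below both trial 2 PBS hearts. The male log2 fold change was 0.68 (95% confidence interval 0.07 to 1.28, adjusted p = 0.328; exact permutation test, p = 0.114). It was 0.32 (adjusted p = 0.698) without male meth trial 2 replicate 1 and 1.06 (adjusted p = 0.0145) without replicate 2, the only alternative under which the brightest probe of any of the 9 genes passed; over its alternatives the adjusted p ran from 0.0145 to 1.0. By trial it was 0.75 and 0.60. Between the sexes, the response differed by -0.034 (95% confidence interval -0.93 to 0.86, adjusted p = 0.988), a sign that changed under quantile normalization and normexp background correction, among others.

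Postn encodes periostin, which activated fibroblasts secrete and which helps cross-link collagen. The male meth signals were 1.89 and 1.53 in trial 1 and 3.52 and 1.89 in trial 2, and the male PBS signals 1.11, 1.02, 1.28 and 1.28. All male meth hearts were above all male PBS hearts (exact permutation test, p = 0.0286), and trial 2 replicate 1 was far above the others. The means were 2.21 ± 0.89 (SD, n = 4) and 1.17 ± 0.13 (SD, n = 4), with a log2 fold change of 1.04 (95% confidence interval 0.40 to 1.68), a 2.05-fold difference whose adjusted p was 0.146. Without trial 2 replicate 1 it was 0.63, at the same adjusted p, and over the alternatives the adjusted p ran from 0.0775 to 0.872. In trial 1, the log2 fold change was 0.64 (adjusted p = 0.872), and in trial 2 it was 1.43 (adjusted p = 0.187); the trials differed by 0.79 (adjusted p = 1.0). Female Postn signals were 1.57, 1.14, 1.66 and 1.77 after meth and 1.09, 1.42 and 1.63 after PBS. These overlapped, and the female log2 fold change was 0.16 (95% confidence interval -0.54 to 0.85, adjusted p = 0.930). The male response was larger than the female one by 0.88 (95% confidence interval -0.062 to 1.82), a difference that did not pass (adjusted p = 0.603).

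**Figure D3:**
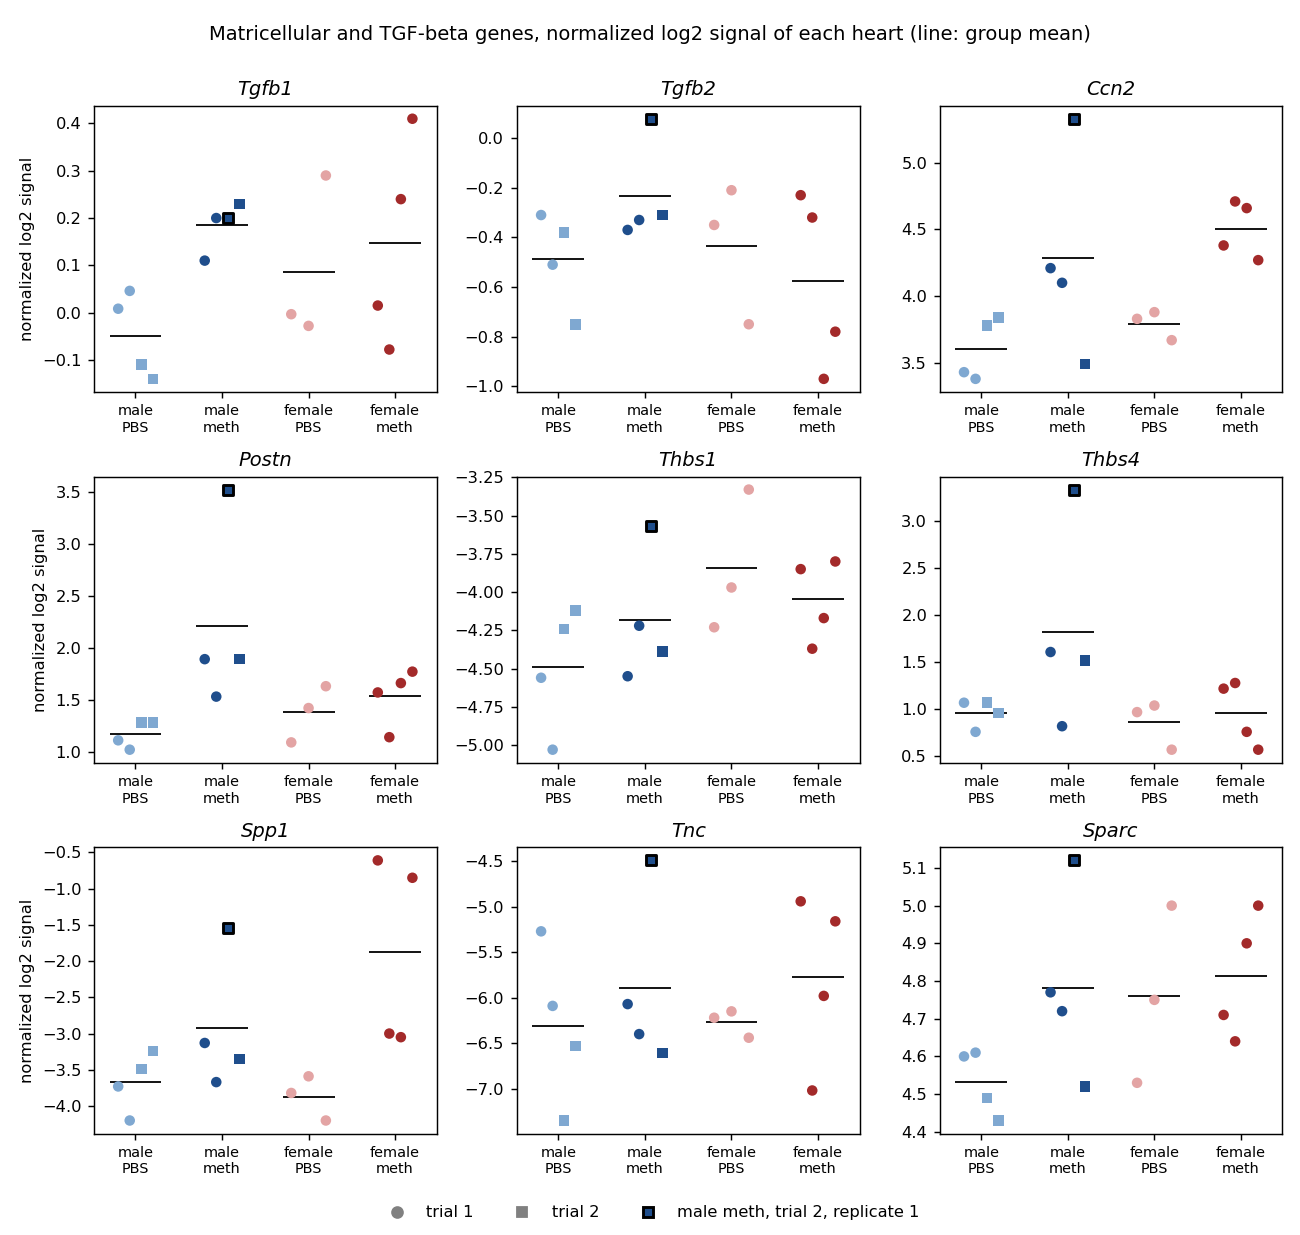
Each panel gives the normalized log2 signal of a listed gene on the 15 arrays by sex and treatment; circles are trial 1, squares trial 2, lines group means, and the outlined square is male meth trial 2 replicate 1. Postn separates male meth from male PBS hearts, Ccn2 and Spp1 separate female meth from female PBS hearts, and the outlined heart is highest of all 15 for 6 genes.

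The thrombospondins bind calcium, matrix and cell receptors; Thbs4 is raised in stressed heart muscle, and Thbs1 can free TGF-beta from its latent complex. Thbs4 on its brightest probe was at 1.61, 0.82, 3.34 and 1.52 in male meth hearts and at 1.07, 0.76, 1.07 and 0.96 in male PBS hearts. Of the male meth hearts, 3 lay above the PBS range and trial 1 replicate 2 inside it (exact permutation test, p = 0.114). Meth minus PBS in males was 0.86 on the log2 scale (95% confidence interval 0.08 to 1.64, adjusted p = 0.333), or 0.39 (adjusted p = 0.688, in a range from 0.124 to 1.0 over the alternatives) without trial 2 replicate 1. A dimmer Thbs4 probe read -0.24, -0.78, 1.86 and -0.31 in male meth hearts and -1.50, -1.70, -1.13 and -1.33 in male PBS hearts. On that probe the groups did not overlap, and its log2 fold change was 1.55 (95% confidence interval 0.71 to 2.39, adjusted p = 0.0932), or 1.02 (adjusted p = 0.0707) without the heart that stood apart; over the alternatives its adjusted p ran from 0.0473, without male meth trial 2 replicate 2, to 0.367. The probes therefore differed in the size of the male change but not in its direction. By trial, the brightest probe gave 0.30 and 1.41. In females Thbs4 changed by 0.095 (adjusted p = 0.969), a sign that turned when female meth replicate 2 or female PBS replicate 3 was left out, and the male and female responses differed by 0.76 (adjusted p = 0.723).

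Thbs1 was close to background, with its brightest probe well above it on 14 of 15 arrays. Male meth hearts gave -4.55, -4.22, -3.57 and -4.39 and male PBS hearts -4.56, -5.03, -4.24 and -4.12, so the groups overlapped and the same trial 2 heart was highest. The male difference was 0.30 (adjusted p = 0.624), or 0.16 without that heart, and the female change was -0.20 (adjusted p = 0.854), where its sign turned with normexp background correction. Its largest value was between the sexes: female PBS hearts gave -4.23, -3.97 and -3.33, and among male PBS hearts only trial 2 replicate 2 rose above the lowest of these. With trial in the fit, male minus female PBS was -0.90 (95% confidence interval -1.47 to -0.32, adjusted p = 0.158), from group means of -4.49 and -3.84. Over the alternatives it ran from -1.09 to -0.12, with adjusted p from 0.111 to 1.0, and a second tested probe gave -0.51 (adjusted p = 0.356).

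Spp1 encodes osteopontin, a matricellular protein and cytokine that macrophages and activated fibroblasts release. In female meth hearts 1 to 4 its signals were -0.61, -3.00, -3.05 and -0.85, and in female PBS hearts -3.82, -3.59 and -4.20. Replicates 1 and 4 were far above the rest, while replicates 2 and 3 were closer to the PBS hearts; no meth heart overlapped with PBS. The female log2 fold change was 1.99 (95% confidence interval 0.70 to 3.29), a 3.98-fold difference with an adjusted p of 0.174. The exact permutation test gave p = 0.0857. Leaving out replicate 1 gave 1.57, leaving out replicate 4 gave 1.65, and over all alternatives it ran from 1.20 to 2.38 with adjusted p from 0.110 to 0.621. The high hearts came from different slides. Meth minus PBS was 3.21 on slide 1, 0.59 on slide 2 and 2.25 on slide 4, where the high replicate 4 is averaged with the low replicate 3. Male Spp1 signals were -3.13, -3.67, -1.55 and -3.35 after meth and -3.73, -4.20, -3.49 and -3.24 after PBS. Again trial 2 replicate 1 alone was high; the male log2 fold change was 0.74 (adjusted p = 0.628), or 0.34 without it. The male response minus the female was -1.25 (95% confidence interval -3.02 to 0.51, adjusted p = 0.702).

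Tnc, whose protein tenascin-C appears at sites of matrix remodelling, was well above background on 3 of the 15 arrays: male meth trial 2 replicate 1 (-4.49) and female meth replicates 1 (-4.94) and 4 (-5.16). These are the hearts with the highest Spp1. It was well above background in 0 PBS hearts, and the bound is under 1, so no fold is given; adjusted p was 0.814 in males and 0.861 in females. Without male meth trial 2 replicate 1, 0 male hearts had it well above background.

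Sparc, a collagen-binding protein that fibroblasts make throughout life, was well above background on every array. Male meth hearts gave 4.77, 4.72, 5.12 and 4.52, and male PBS hearts 4.60, 4.61, 4.49 and 4.43. Trial 2 replicate 1 was again highest, and replicate 2 lay inside the PBS range (exact permutation test, p = 0.0857). Its male log2 fold change was 0.25 (adjusted p = 0.489), or 0.10 without that heart. In females it was 0.057 (95% confidence interval -0.26 to 0.38, adjusted p = 0.949) and turned negative with quantile normalization and with normexp background correction.

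The start regions of 2 genes that were highest in the same heart are shown to let the letters be read beside the values. RefSeq (GRCm38.p6) listed 10 promoters for 7 of the 10 genes, and the 250 bases before each start were searched on both strands for GTCTAGAC and AGCCAGACA, which SMAD proteins bind, TGAGTCA, bound by AP-1, GGAATG, bound by TEAD factors, and TATAAA. Capitals mark matches. The first sequence is a Postn start at chr3:54360857-54361106 on the plus strand, and the second the Thbs4 start at chr13:92794819-92795068 on the minus strand.
Postn: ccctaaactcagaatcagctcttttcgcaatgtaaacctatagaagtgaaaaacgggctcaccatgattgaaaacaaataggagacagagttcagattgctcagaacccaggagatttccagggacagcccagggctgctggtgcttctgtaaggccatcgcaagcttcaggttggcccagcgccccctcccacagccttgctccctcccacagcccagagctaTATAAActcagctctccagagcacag
Thbs4: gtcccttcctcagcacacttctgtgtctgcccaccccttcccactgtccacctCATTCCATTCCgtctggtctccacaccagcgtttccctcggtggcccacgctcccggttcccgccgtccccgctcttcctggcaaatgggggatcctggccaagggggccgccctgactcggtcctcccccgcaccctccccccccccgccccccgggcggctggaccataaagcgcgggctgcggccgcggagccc
In Postn, TATAAA lies 26 to 21 bases before the start; another listed Postn start holds none of the letters. Thbs4 holds GGAATG in reverse from 197 and from 192 bases before the start, the pair sharing a base. Neither SMAD sequence nor the AP-1 sequence was found in any of the 10 promoters. Of 32851 mouse promoters of the same length, 0.167% hold GTCTAGAC, 0.301% AGCCAGACA, 4.46% TGAGTCA, 12.6% GGAATG and 12.4% TATAAA. Matches describe the letters only.

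The rest of the pathway was read from gene lists. Over all genes tested, 13.2% had an unadjusted p under 0.05 in males, 9.18% without the outlying heart, and 7.82% in females. Of 17 TGF-beta target genes, 4 did in males, 5 without that heart, and 2 in females. The median log2 fold change of the list was 0.30 in males, 0.047 without the heart, and 0.096 in females, with Cthrc1 at its bound. Cthrc1 was well above background on 2 of 4 male meth and 0 male PBS arrays, so its male difference is a bound, at least 1.39-fold higher (adjusted p = 0.394), or no fold without the heart. In females it was also well above background on 2 of 4 arrays after meth and 0 after PBS. Female signals were -4.34, -5.79, -5.92 and -3.0 after meth and -4.74, -5.39 and -6.18 after PBS, so the groups overlapped. The bound from the female means was 1.4-fold, but no female difference is established (adjusted p = 0.846). The confidence interval of the fitted female log2 value ran from -0.98 to 2.34. A bound sets the mean of the brighter group against the lowest signal well above background on each array of the other. Cilp was largest in males among the targets with a log2 fold change but did not pass (1.48, adjusted p = 0.122); in females Timp1 (0.88, adjusted p = 0.317) did not pass. Cilp, made by activated cardiac fibroblasts, was at 0.73, 0.15, 3.05 and 0.67 in male meth hearts and at -0.24, -0.57, -0.27 and -0.26 in male PBS hearts. Without the outlying 3.05 its log2 fold change was smaller, 0.88, and its adjusted p was 0.00964, the lowest of a range up to 0.404 over the alternatives; Nox4 also passed without that heart, at 0.72 (adjusted p = 0.0476, in a range up to 0.936). The 4 collagen genes of the list were highest of all 15 arrays in that heart: Col3a1 was 5.00 there and 3.70, 3.57 and 3.72 in the other male meth hearts, and its male log2 fold change was 0.30 with it and -0.04 without it.

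Of 16 other matricellular genes tested, 0 passed in either sex, and 8 had an unadjusted p under 0.05 in males, 3 without the outlying heart, and 1 in females. Comp, which encodes cartilage oligomeric matrix protein (thrombospondin 5), came closest in males. It was at 2.80, 2.38, 4.54 and 2.57 after meth and at 1.70, 1.46, 1.57 and 1.48 after PBS, with no overlap. This came to 1.52 on the log2 scale (standard error 0.37, adjusted p = 0.0804), or 1.02 (adjusted p = 0.0622, in a range from 0.0513 to 0.419 over the alternatives) without the outlying heart. Ccn5 followed at 0.89 (adjusted p = 0.256), or 0.54 without that heart; in females Ccn5 (0.48, adjusted p = 0.696) and Ccn4 (0.46, adjusted p = 0.343) were largest. The list's median was 0.29 in males, 0.16 without the outlying heart, and 0.088 in females. Vcan, for versican, was the only gene of the pathway lists to pass between PBS hearts, lower in males by 0.55 (adjusted p = 0.029) with trial in the fit. Its group means were -2.85 in male and -2.63 in female PBS hearts, and the male hearts of trial 2 (-2.58 and -2.48) lay at the level of the female ones.

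Upstream, 0 of 13 genes for TGF-beta storage, activation and reception passed in either sex, with 3 at an unadjusted p under 0.05 in males, also 3 without the outlying heart, and 1 in females. The largest in males were Ltbp2, a latent TGF-beta binding protein (1.27, adjusted p = 0.182, or 0.71 without the outlying heart), and Itgb6, an integrin subunit that activates TGF-beta (-0.75, adjusted p = 0.123, in a range from 0.0206 to 0.937 over the alternatives, or -0.62 without that heart). In females they were Itgb6 again (-0.57, adjusted p = 0.328) and Ltbp2 (0.36, adjusted p = 0.854). Among 11 SMAD signalling and feedback genes 0 passed, 2 having an unadjusted p under 0.05 in males, with or without the heart, and 3 in females. Their male median was -0.038, or -0.08 without the heart, led by Tgif1 (0.62, adjusted p = 0.238, or 0.35 without) and Ldlrad4 (0.19, adjusted p = 0.292, or 0.12 without); in females Smad3 (-0.37, adjusted p = 0.124) and Smad7 (0.34, adjusted p = 0.418) led. Of 15 genes for collagen cross-linking and processing 0 passed, 3 and 2 having an unadjusted p under 0.05 in males, with or without the heart, and females. Fmod (0.85, adjusted p = 0.191, or 0.53 without) and Loxl3 (0.64, adjusted p = 0.218, or 0.35 without), a relative of Lox, were largest in males, and P4ha1 (0.36, adjusted p = 0.109) and Plod2 (0.19, adjusted p = 0.367) in females. Of 14 receptor genes 0 passed, with 0 and 1 at an unadjusted p under 0.05; Sdc4 (0.29, adjusted p = 0.391, or 0.18 without the heart) and Lrp1 (0.26, adjusted p = 0.473, or 0.11 without) led in males and Sdc1 (0.32, adjusted p = 0.412) and Ddr2 (-0.15, adjusted p = 0.796) in females. With the methods' t-test or its unpaired form, 0 genes of these pathway lists passed in either sex. Unpaired, 3, 6, 4, 2, 3 and 3 genes of the lists, in the order given, had an unadjusted p under 0.05 in males and 1, 0, 0, 3, 2 and 0 in females.

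For each listed gene, the closest genes by Pearson r over the 15 arrays were found, as a description. Postn was closest to Sfrp2 (0.97) and Sprr1a (0.95), Thbs4 to Cilp (0.95) and Fibin (0.94), and Ccn2 to Mfap5 (0.85) and Pou3f1 (0.84). These rested in part on the outlying heart: over the other 14 arrays Postn and Sfrp2 had r = 0.88, Thbs4 and Cilp 0.74, and Ccn2 and Mfap5 0.73. Spp1 was closest to Timp1 (0.95) and Clec4d (0.94), and Sparc to Col5a2 (0.94) and P3h3 (0.93). For these the value over 14 arrays was within 0.92 to 0.96. Tnc was closest to Cfhr2 (0.86) and Ogn (0.84), but with Tnc well above background on 3 of 15 arrays, most of its values there are background signal. Tgfb1 was closest to Snx33 (0.93) and Olfml3 (0.91), Tgfb2 to P2rx7 (0.95) and Epb41l2 (0.89), and Thbs1 to Nlgn2 (0.86) and Tubb4a (0.85). All arrays share the scaling to their own 75th percentile.

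Markers of cell types were read beside these values, and their part in any result was not tested. In fibroblast markers, 0 of 7 passed with limma and 1 had an unadjusted p under 0.05 in each sex, with or without the outlying heart; the mean signal, over the 6 with a value on every array (all but Dpt), was 3.04 in the outlying male heart and 2.64, 2.59 and 2.47 in the other male meth hearts, against 2.70, 2.61, 2.50 and 2.42 in male PBS hearts. Against the mean of the other male meth hearts, all 7 markers were higher there, from Dcn, the brightest, by 0.0062 to Pi16 by 0.82 and Mfap5 by 1.34, with a median of 0.15. Among 8 macrophage markers 0 passed, 3 having an unadjusted p under 0.05 in males, 2 without the outlying heart, and 0 in females, with Csf1r the brightest. Their mean was 1.07 in the outlying heart and 0.99 and 0.79 in the female hearts with high Spp1, against 0.58 and 0.43 in the other female meth hearts. The other male meth hearts had 0.85, 1.00 and 0.69, the highest of these in trial 1 replicate 2, whose Spp1 was low (-3.67). Airway epithelium markers moved most of all lists: 6 of 6 tested passed in males and 2 of 6, Bpifa1 and Reg3g, in females. With the replicate number as a block the female adjusted p was 0.0732 and 0.128, in ranges over the alternatives from 0.00881 to 0.521 and from 0.0214 to 0.952. Bpifa1, Reg3g and Tspan1 were well above background on all male meth and 0 male PBS arrays, so they were at least 898-fold, 108-fold and 16.7-fold higher after meth. Bpifa1 and Reg3g met the filter through meth arrays alone. Scgb1a1, well above background on 4 male meth and 2 of 4 male PBS arrays, was higher after meth too (adjusted p = 2.92e-06). The list's mean in male meth hearts was 2.29, 4.04, 1.88 and 2.60, lowest in the heart with the highest Postn, and between -5.39 and -5.01 in male PBS hearts. Female meth hearts 1 to 4 had -1.31, -3.38, -3.27 and -1.39, highest in the hearts with high Spp1, and female PBS hearts -3.99, -3.63 and -3.61. Its brightest gene, Scgb3a1, was well above background on all 15 arrays.

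**Figure D4:**
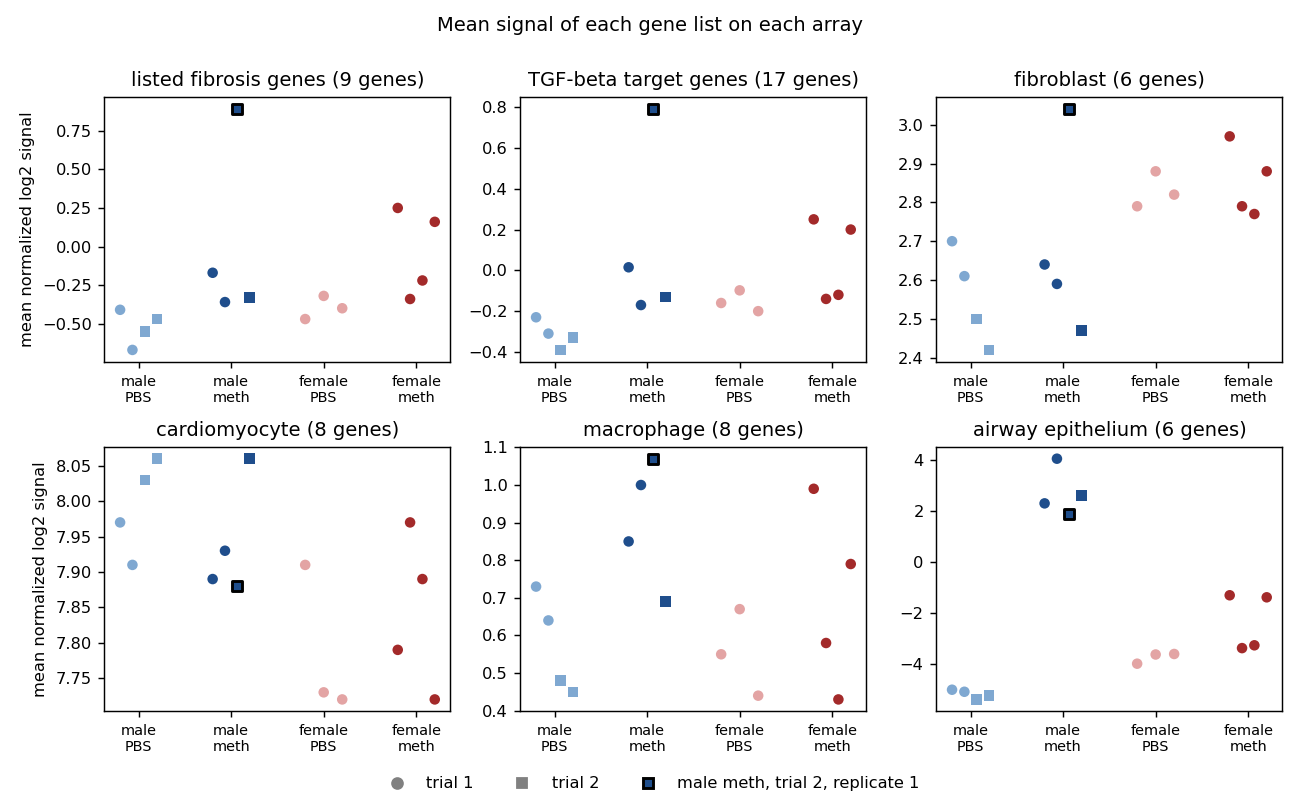
Each panel gives the mean normalized log2 signal of a gene list on each of the 15 arrays by sex and treatment, with the same symbols as the plot of single genes. The outlined male heart leads the listed genes and the TGF-beta targets (0.79), but has the lowest airway mean of the male meth hearts (1.88).

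The remaining marker lists had few calls. In 2 lung alveolus genes tested, Sftpa1, well above background on 3 male meth and 0 male PBS arrays, passed in males (at least 1.74-fold higher, adjusted p = 0.026) and Sftpc, the brightest, in females (-2.08, adjusted p = 0.0143, but 0.0666 with the replicate number as a block, in a range from 0.0142 to 0.607 over the alternatives). Sftpa1 met the filter of 3 arrays through male meth hearts alone, so its call in males is not independent of the filter. None passed, in males or females, of 8 cardiomyocyte, 5 atrial (brightest Nppa), 6 smooth muscle and myofibroblast (Acta2), 5 endothelial (Kdr), 5 epicardial and mesothelial (Msln), 5 platelet (Pf4), 4 cartilage (Col2a1), 1 tendon (Scx) and 4 skeletal muscle (Myh4) markers tested with limma. At an unadjusted p under 0.05 in males were 0, 1, 0, 1, 2, 0, 0, 1 and 0 of these, in the same order, and in females 0, 2, 0, 1, 0, 0, 0, 0 and 0. Without the outlying heart, the male counts were 0, 1, 0, 1, 4, 1, 0, 1 and 0. An unpaired form of the methods' t-test called 5 airway genes in males and 0 genes of any other marker list; in females it called 0, as the paired test did in either sex. Between PBS hearts, Scgb1a1 was lower in males (adjusted p = 0.0019), as was Sftpc (at least 10.4-fold, adjusted p = 1.79e-05), not well above background on any male PBS array, and Cnmd was higher (1.63, adjusted p = 0.0442). Acta2, the usual myofibroblast marker, had a male log2 fold change of -0.087 (adjusted p = 0.835).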

How the data were processed

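RNA from 15 mouse hearts was measured on Agilent 4x44K arrays. The authors extracted the deposited intensity of each spot, a background-subtracted processed signal, and its flags with Feature Extraction (version 10.5.1.1 per the file headers, 9.1 per the submitters' processing notes). A log2 table from the authors equals log2 intensity plus a constant per array and served as an alternative. Flagged outlier spots were dropped, log2 signals of a probe's spots averaged, and each array's 75th percentile over 41174 non-control probes subtracted. Gene names came from RefSeq accessions (GRCm38.p6, for names only), which matched 26918 probes. Probes detected well above background by 3 or more arrays (28358, for 14220 genes) were fitted with limma 3.58.1 in R 4.3.3, with 4 groups and trial; tests were two-sided, with Benjamini-Hochberg adjustment over all probes. Single genes were tested by exact permutation of arrays. The fit was tested on simulated data. Each gene stands as its brightest tested probe.

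The members and lists were chosen with earlier results of these data known. All 9 genes with a probe were named; from each other list and sex, up to 4 genes past the threshold with the largest change, or the 2 largest where fewer than 2 passed; from each marker list the brightest; and for each listed gene the 2 most alike. Not every gene so chosen is named. Col3a1, Nox4, Pi16, Mfap5, the array singled out and the values within each slide were chosen after their values were seen. Female arrays with the same number lay on the same slide and deviated together (r = 0.300, 0.437 and 0.664 over 23808 probes), so the numbers pair them; with the replicate number as a block, 101 rather than 215 female probes passed and no listed gene did. Alternatives covered background correction, scaling, filter, trial, blocks, tests and each array left out. Lists also held Lox, Lrrc32, Itgb8, Zfyve9, Muc16, Cd68 and Scgb3a2, which matched no probe by accession (one under an accession missing from the table would be missed), and 11 genes under the filter.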

Additional observations from a re-analysis of the deposited data

Results flagged for a closer look

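In groups of 4, 27 sets of values were examined for a heart far from the others, and 1 was found: Tgfb2 on male meth trial 2 replicate 1, at 0.078, with a gap to the next heart of 0.869 of the group's range. About 1 in 20 groups is found by chance. The Postn gap of the same heart was 0.818, short of the limit used. Airway epithelium genes differed between the sexes in their response (male minus female, limma), though none passed with the replicate number as a block: Scgb1a1 by 10.77 (adjusted p = 0.000147; well above background on 2 of 4 male PBS arrays), Scgb3a1 by 4.57 (adjusted p = 0.0102) and Cyp2f2 by 4.53 (adjusted p = 0.0138). Bpifa1 (adjusted p = 0.0081) and Tspan1 (adjusted p = 0.0138) did so too, with fitted values of 7.35 and 6.28 that measure no size, since no male PBS array had them well above background. With the block, adjusted p was 0.0502 for Scgb1a1, 0.0774 for Bpifa1 and Scgb3a1, 0.0896 for Tspan1 and 0.119 for Cyp2f2. Over all alternatives the lowest was 7.95e-05 (Scgb1a1) and the highest 1.0 (Tspan1). None of the 9 listed genes passed.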

How the results depend on the processing

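Of the 9 listed genes, 0 passed in males under every alternative except without male meth trial 2 replicate 2, where 1 (Ccn2) did on its brightest probe, and 0 passed in the other comparisons under any. Counts of probes past the threshold moved more. In males 314 passed: 53 with normexp background correction, 177 with no filter, 157 with the replicate block (males share only a number, with r of -0.085 and 0.01), 525 with slide as a block, 43 with trial 1 arrays alone, 0 and 18 with the methods' paired t-test and an unpaired form of it (4313 and 3769 at an unadjusted p under 0.05), and 119 to 309 with an array left out. In females 215 passed, 27.0% of them higher: 27 with normexp background correction, 132 with quantile normalization, 124 (58.9% higher) with the median shift, 91 with no filter, 61 with no trial term, 101 with the replicate block, 411 with slide as a block, 69 with trial 1 arrays alone, 0 with either t-test (2817 paired and 2350 unpaired at an unadjusted p under 0.05), and 38 to 205 with an array left out. For the difference, 39 passed: 14 with normexp background correction, 12 with the filter on all 15 arrays, 0 with the replicate block (limma, 4155 at an unadjusted p under 0.05) and 9 with trial 1 arrays alone; the median over all probes was -0.12 with the median shift and -0.015 without it. Between PBS hearts, 136 passed, 39.0% higher in males: 21 with normexp background correction, 58 with no filter, 236 with trial from the source name, 61 with trial 1 arrays alone, 42 to 153 with an array left out, and 56.2% and 67.6% were higher with quantile normalization and the median shift. Directions that changed were all of genes that did not pass. The fitted male Tnc value, which is no fold since no PBS heart had it well above background, was -0.051 with normexp background correction, -0.56 in trial 1, and -0.20 to 0.78 with an array left out. In females, Thbs1 was 0.024 with normexp background correction (-0.40 to 0.052 with an array left out), and Thbs4 -0.049 to 0.22. Female Sparc was -0.092 with normexp background correction, -0.034 with quantile normalization, -0.0066 with the replicate block and the paired t-test of the methods, and -0.059 to 0.18 with an array left out. Female Tgfb1 was -0.026 with that block and that test, and -0.026 to 0.16 with an array left out. The Ccn2 difference was 0.099 with normexp background correction, 0.084 with quantile normalization, 0.042 with trial 1 arrays alone, and -0.39 to 0.35 with an array left out. Apart from fewer arrays where some were dropped, the cause was not tested. With 3 or 4 hearts a group few changes can be called, and Tnc and Thbs1 lie near background.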
